A study of Mus musculus with 12 samples.

Results

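Cholesterol synthesis and its sterol control were followed through 30 genes in mouse tumours treated with radiotherapy, with a 4-1BB agonist or with both. The genes were chosen by function and comprised 8 enzymes of the mevalonate pathway, 11 enzymes of the sterol branch, 5 genes of SREBP2 control and 6 genes of the LXR receptors and cholesterol efflux. All 30 were among the 17757 genes with enough counts to be tested, of 56884 in the files. The choice was made with the levels of these genes across the 4 treatment labels of the same libraries already known. The levels, changes and counts of genes below are therefore a description of the pathway in these tumours and no independent test that the pathway moved.

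The tumours combined TS/A cells, a mouse mammary carcinoma line, with cancer-associated fibroblasts, and every library carried the genotype label WT. There were 4 groups of 3 libraries: tumours given radiotherapy together with muFAP-4-1BBL (RT_FAP41BBL), radiotherapy alone (RT), muFAP-4-1BBL alone (FAP41BBL), or the vehicle, labelled with no treatment (control). As its name says, muFAP-4-1BBL brings 4-1BB ligand, which costimulates T cells, to fibroblast activation protein, found on many tumour fibroblasts. The labels give no dose, harvest time, age or source of the fibroblasts, and nothing in them says which libraries came from separate animals. The p-values therefore reflect only how far these libraries varied, which can be technical variation.

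Cells build cholesterol from acetyl-CoA through mevalonate and squalene. The transcription factor SREBP2 turns on nearly all enzymes of this route: its escort SCAP carries it out of the endoplasmic reticulum when membrane sterol is low, and the INSIG proteins hold the complex back when sterol is plentiful. The LXR receptors sense oxysterols and act in the opposite direction, inducing the exporters ABCA1 and ABCG1, a programme best known from macrophages loaded with lipid.

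The promoters of 4 genes are shown because SREBP2 acts on the sterol regulatory element (SRE). CCAAT boxes were marked as a separate motif and are not themselves SREBP2 sites. The 4 genes include a mevalonate enzyme with an exact SRE match and the enzyme with the largest fall in RT_FAP41BBL against control. The others are a sterol sensor and the SREBP2 gene itself. Each is 300 bases long, from 250 bases before to 50 bases after the transcription start, from RefSeq on GRCm38.p6, plus strand: Hmgcs1 at chr13:119690101-119690400, Idi1 at chr13:8885356-8885655, Insig1 at chr5:28071162-28071461 and Srebf2 at chr15:82147019-82147318. Capitals mark the CCAAT box, which reads ATTGG where it lies on the other strand, and the SRE.
Hmgcs1: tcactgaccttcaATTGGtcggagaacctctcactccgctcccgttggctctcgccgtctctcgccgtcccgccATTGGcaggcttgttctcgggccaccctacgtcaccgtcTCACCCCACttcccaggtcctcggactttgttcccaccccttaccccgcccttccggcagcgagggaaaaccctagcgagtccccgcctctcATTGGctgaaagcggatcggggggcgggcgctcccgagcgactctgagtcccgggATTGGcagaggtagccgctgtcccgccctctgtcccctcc
Idi1: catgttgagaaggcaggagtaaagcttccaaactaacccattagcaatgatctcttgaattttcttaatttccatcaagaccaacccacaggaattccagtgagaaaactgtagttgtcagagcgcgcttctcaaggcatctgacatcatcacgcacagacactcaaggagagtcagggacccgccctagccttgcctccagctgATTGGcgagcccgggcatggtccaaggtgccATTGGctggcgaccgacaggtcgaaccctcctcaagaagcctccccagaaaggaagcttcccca
Insig1: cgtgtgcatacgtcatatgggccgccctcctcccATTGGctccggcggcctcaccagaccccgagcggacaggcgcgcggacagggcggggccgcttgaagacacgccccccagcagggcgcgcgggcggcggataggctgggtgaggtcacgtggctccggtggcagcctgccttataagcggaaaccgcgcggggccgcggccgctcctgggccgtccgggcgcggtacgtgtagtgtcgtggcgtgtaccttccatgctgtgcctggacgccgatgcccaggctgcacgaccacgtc
Srebf2: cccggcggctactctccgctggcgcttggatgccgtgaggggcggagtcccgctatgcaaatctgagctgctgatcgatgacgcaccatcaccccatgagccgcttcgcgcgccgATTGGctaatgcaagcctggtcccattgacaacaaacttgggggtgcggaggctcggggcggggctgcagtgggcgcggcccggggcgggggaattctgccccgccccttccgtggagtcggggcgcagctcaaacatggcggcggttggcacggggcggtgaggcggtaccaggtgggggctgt

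The letters TCACNCCAC (an SRE) and CCAAT were searched on both strands of these windows, which RefSeq gave for 25 of the 30 genes and for 27025 genes in all. The SRE letters occurred in 1 of the 25 genes, Hmgcs1, 137 bases before the start, and in 1.44% of all genes. A CCAAT box occurred in 20 of the 25 genes (80.0%), against 41.1% of all genes. By role it stood in 6 of 7 mevalonate enzymes and 9 of 9 sterol enzymes with a window, in 3 of 4 genes of SREBP2 control and in 2 of 5 genes of LXR and efflux. A gene with several start sites was counted if any of its windows held a match. Dhcr7, Insig2 and Pmvk also had windows without a CCAAT box. None of the marked matches in the 4 promoters overlapped. The LXR element searched, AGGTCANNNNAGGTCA, was in 0 of the 25 genes and in 0.0148% of all genes. A match is a description of the letters in the window, and its absence says only that these letters were not there.

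Libraries held between 34076477 and 42067481 counted fragments, and 24171 to 25773 genes had at least 1 count. The fibroblast markers summed to 4880 to 11100 CPM, where CPM is the count of a gene scaled by the size of its library. Of the epithelial markers, Krt8 stood at 231 to 437 CPM and Epcam at only 0.0824 to 8.18 CPM. None of the 8 fibroblast, 6 epithelial or 6 proliferation markers passed the test in the comparisons with control. Of all tested genes, 7.91% passed in RT_FAP41BBL, 9.62% in RT and 0.00563% in FAP41BBL. A count of 0 therefore cannot tell lists this short from all genes. The log2 change was positive for 0, 1 and 0 of the 6 proliferation markers in these comparisons (medians -0.27, -0.14 and -0.14). Skeletal muscle markers summed to 447 to 904 CPM in RT_FAP41BBL, 5730 to 13000 in RT, 68.1 to 2030 in FAP41BBL and 54.6 to 594 in control, so every RT library stood above every other library in muscle RNA. Macrophage markers summed to 4550 to 5750, 2530 to 4140, 3550 to 4390 and 3060 to 3940 CPM in the same order of groups, highest in the 3 RT_FAP41BBL libraries. Adipocyte markers summed to 89.8 to 389, 85.0 to 283, 177 to 329 and 22.6 to 103 CPM. FAP41BBL replicate 1 stood apart from the other libraries of its group in the sterol genes, as described below. In bulk RNA, fewer cells of a type and less RNA per cell cannot be told apart.

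Most genes of cholesterol synthesis fell in both irradiated groups against control, while Abcg1 rose in both and Nr1h3 and Mylip passed as higher in RT_FAP41BBL. In RT_FAP41BBL against control, 18 of the 30 genes fell and 3 rose, where 2.31% of all tested genes fell and 5.59% rose. In RT against control, 16 fell and 1 rose, with 3.05% and 6.57% of all tested genes. In RT_FAP41BBL against FAP41BBL, 8 fell and 2 rose, with 0.124% and 0.822%. A call is an adjusted p under 0.05 in edgeR's quasi-likelihood test with Benjamini-Hochberg adjustment over the 17757 genes, and every adjusted p below is from that test unless another tool is named. RT_FAP41BBL and RT share their control libraries, and 14 genes fell in both comparisons with control. Of these, 8 also fell in RT_FAP41BBL against FAP41BBL: Hmgcs1, Fdft1, Sqle, Lss, Cyp51, Hsd17b7, Srebf2 and Insig1. That comparison uses the RT_FAP41BBL libraries again, so these comparisons are not independent of each other. How many of all tested genes fell in the same comparisons together was not counted. None of the 10 calls against FAP41BBL survived the removal of each single library in turn, as described below.

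The summed level of the 19 synthesis enzymes was 388, 377 and 445 CPM in the RT_FAP41BBL libraries, 464, 554 and 401 CPM in RT, 1020, 555 and 650 CPM in FAP41BBL, and 963, 878 and 770 CPM in control. All 6 irradiated libraries stood below all 6 others on this sum, although RT replicate 2 and FAP41BBL replicate 2 nearly met, and FAP41BBL replicate 1 stood above every control library. The median log2 change of the 19 enzymes was -1.0 in RT_FAP41BBL against control, -0.95 in RT against control and -0.25 in FAP41BBL against control, while the median over all tested genes lay within 0.01 of 0 in each.

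**Figure D1:**
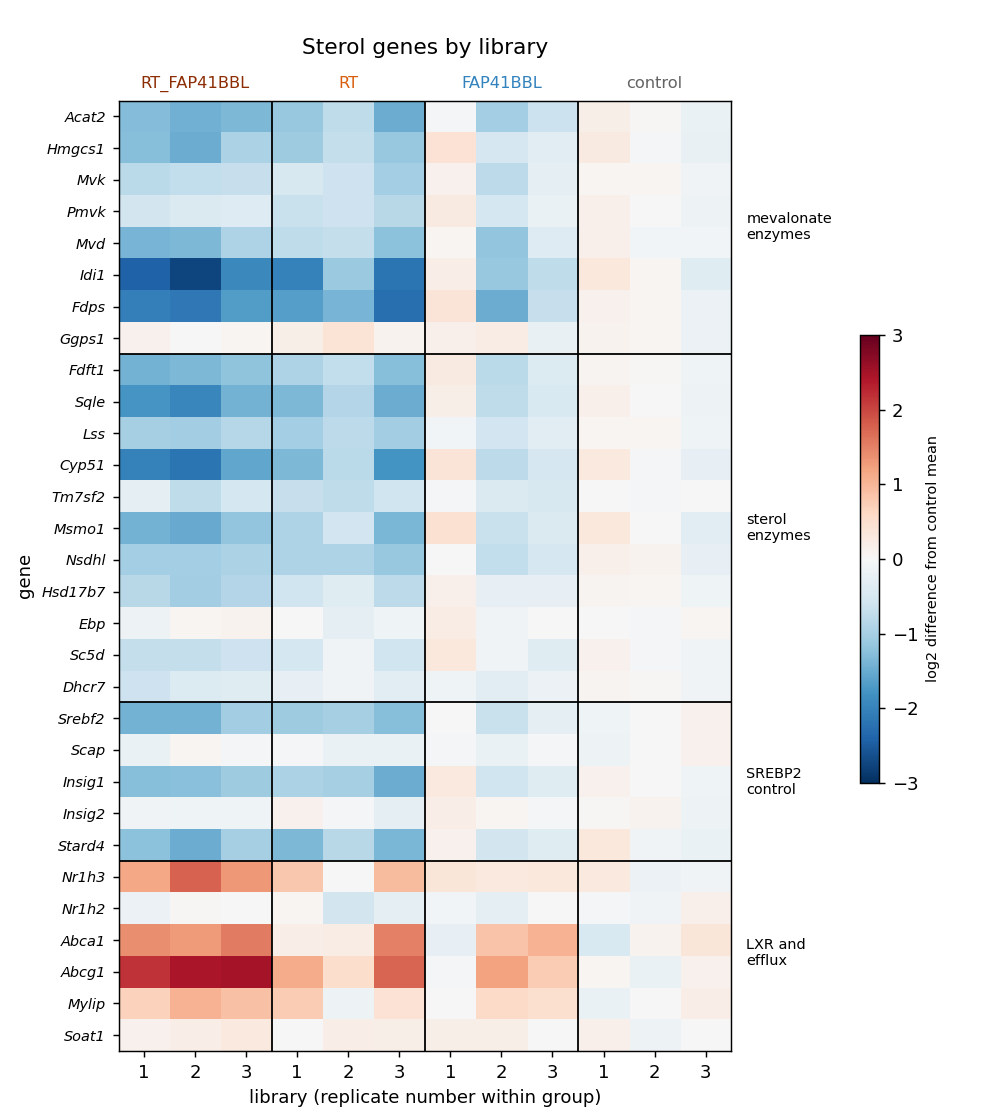
Log2 difference of each of the 30 genes (down) from its control mean in each of the 12 libraries (across, by group and replicate number); blue is lower and red is higher. Most synthesis enzymes and Srebf2, Insig1 and Stard4 are blue in the RT_FAP41BBL and RT libraries, Abcg1 and Nr1h3 are red in RT_FAP41BBL, and FAP41BBL replicate 1 resembles control while replicates 2 and 3 are paler blue.

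Srebf2, the gene of SREBP2, had the smallest adjusted p of the 30 genes in RT_FAP41BBL against control. It stood at 92.5, 92.7 and 120 CPM in RT_FAP41BBL, 117, 123 and 101 CPM in RT, 243, 154 and 203 CPM in FAP41BBL, and 226, 246 and 269 CPM in control. The irradiated libraries reached at most 123 CPM and the others started at 154 CPM, so the 6 and 6 libraries did not overlap. The log2 change was -1.28 ± 0.16 (SE, adjusted p = 0.00232) in RT_FAP41BBL against control, -1.12 ± 0.16 (adjusted p = 0.00201) in RT against control, and -0.97 ± 0.16 (adjusted p = 0.0234) in RT_FAP41BBL against FAP41BBL. Srebf2 lies on chromosome 15 at 82031382 to 82089580 (GRCm39, plus strand).

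Insig1, the sterol sensor that is itself a target of SREBP2, followed Srebf2. It stood at 18.1, 18.1 and 20.8 CPM in RT_FAP41BBL, 22.5, 21.9 and 15.5 CPM in RT, 53.2, 28.8 and 33.7 CPM in FAP41BBL, and 47.7, 43.6 and 40.0 CPM in control. Its log2 change was -1.20 ± 0.21 (adjusted p = 0.00622) and -1.13 ± 0.21 (adjusted p = 0.00609) in RT_FAP41BBL and RT against control. Stard4, a soluble carrier that moves cholesterol between membranes, changed by -1.24 ± 0.21 (adjusted p = 0.00636) and -1.18 ± 0.21 (adjusted p = 0.00597) in the same comparisons. Scap and Insig2, the escort and the second retention protein, passed in no comparison. Scap averaged 90.5 ± 8.61 CPM (SD, n = 3) in RT_FAP41BBL, 85.3 ± 5.52 in RT, 87.6 ± 5.52 in FAP41BBL and 94.2 ± 9.0 in control. Insig2 averaged 63.3 ± 0.572, 66.2 ± 9.31, 72.4 ± 6.10 and 69.2 ± 6.37 CPM. Of the 5 genes of SREBP2 control, 3 thus fell in each irradiated group against control.

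Of the 8 mevalonate enzymes, 6 fell in RT_FAP41BBL against control and 6 in RT against control. The steepest fall in RT_FAP41BBL against control was that of Idi1, which isomerises isopentenyl diphosphate (chromosome 13, 8935537 to 8942487). Idi1 stood at 5.94, 4.66 and 8.34 CPM in RT_FAP41BBL, 7.77, 14.6 and 6.91 CPM in RT, 36.6, 14.4 and 18.7 CPM in FAP41BBL, and 39.6, 33.2 and 24.7 CPM in control. The irradiated libraries lay below the control libraries, and RT replicate 2 stood level with FAP41BBL replicate 2. The log2 change was -2.36 ± 0.41 (adjusted p = 0.00827), a level 0.194-fold that of control, in RT_FAP41BBL and -1.73 ± 0.40 (adjusted p = 0.0220) in RT.

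Fdps makes farnesyl diphosphate, the last common precursor of sterols and isoprenoids. It stood at 30, 28.1 and 38.8 CPM in RT_FAP41BBL, 39.7, 47.5 and 26.2 CPM in RT, 164, 44.2 and 77.0 CPM in FAP41BBL, and 136, 129 and 111 CPM in control. The spread within FAP41BBL was wide, with replicate 1 above control and replicate 2 within the RT range. The log2 change was -1.96 ± 0.41 (adjusted p = 0.0205) in RT_FAP41BBL and -1.73 ± 0.41 (adjusted p = 0.0268) in RT against control.

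Hmgcs1, which forms HMG-CoA and whose promoter carries the SRE match shown above, stood at 32.8, 28.1 and 40.7 CPM in RT_FAP41BBL, 37.8, 47.8 and 35.8 CPM in RT, 108, 56.1 and 62.8 CPM in FAP41BBL, and 94.7, 76.9 and 67.9 CPM in control. The 6 irradiated and the 6 other libraries did not overlap. The fitted log2 change was -1.24 ± 0.24 (adjusted p = 0.0114) in RT_FAP41BBL and -0.98 ± 0.24 (adjusted p = 0.0251) in RT against control. Acat2, which joins acetyl-CoA units at the head of the route, changed by -1.37 ± 0.23 (adjusted p = 0.00598) and -1.11 ± 0.23 (adjusted p = 0.0112). Its neighbouring copy Acat3, with which it could share reads, reached at most 0.968 CPM, against 12.3 to 38.8 CPM for Acat2.

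Mvk, the mevalonate kinase, fell by 0.75 and 0.69 on the log2 scale in RT_FAP41BBL and RT against control (adjusted p = 0.0377 and 0.0470). Mvd, the decarboxylase that follows, passed in RT_FAP41BBL only (-1.22 ± 0.27, adjusted p = 0.0181, against -0.90 ± 0.27, adjusted p = 0.0544, in RT), and Pmvk, the phosphomevalonate kinase, passed in RT only (-0.71 ± 0.17, adjusted p = 0.0209, against -0.47 ± 0.17, adjusted p = 0.113, in RT_FAP41BBL). The difference between the 2 irradiated groups did not pass the test for either gene (adjusted p = 0.515 and 0.426). Ggps1, which diverts farnesyl diphosphate to the geranylgeranyl group used on small GTPases, averaged 33.8 ± 1.65 CPM in RT_FAP41BBL, 38.4 ± 4.48 in RT, 34 ± 5.5 in FAP41BBL and 32.6 ± 3.33 in control and passed in no comparison.

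**Figure D2:**
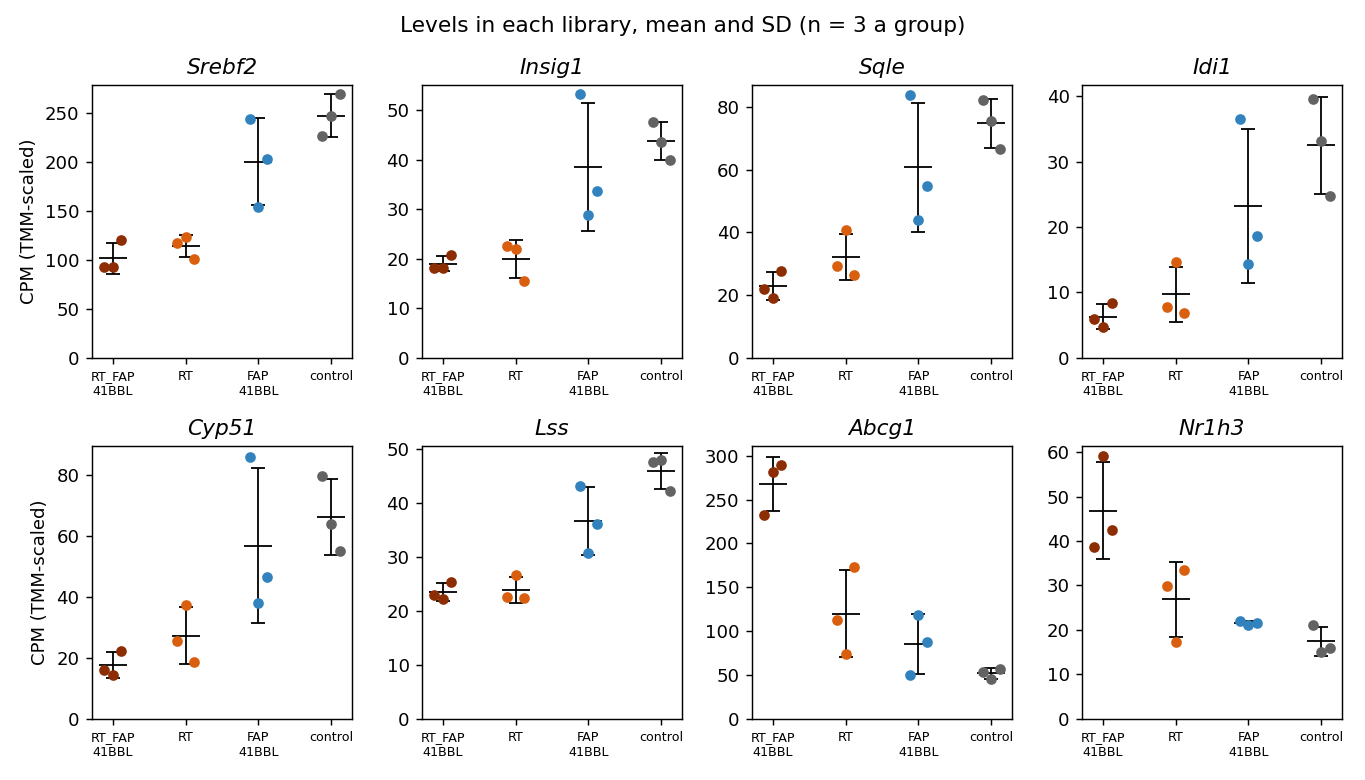
CPM of 8 genes in each library (points, in group order RT_FAP41BBL, RT, FAP41BBL, control), with the mean and SD of each group of 3 as a bar; all axes start at 0. Srebf2, Insig1, Sqle, Cyp51 and Lss stand lower in all 6 irradiated libraries than in the other 6, and Abcg1 and Nr1h3 stand highest in the 3 RT_FAP41BBL libraries.

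Of the 11 enzymes of the sterol branch, which leads from farnesyl diphosphate to cholesterol, 9 fell in RT_FAP41BBL against control and 7 in RT. Sqle, squalene epoxidase, a rate-limiting step of the branch, stood at 21.8, 19.1 and 27.8 CPM in RT_FAP41BBL, 29.4, 40.6 and 26.5 CPM in RT, 83.7, 43.9 and 54.6 CPM in FAP41BBL, and 82.2, 75.4 and 66.5 CPM in control. The highest irradiated library, RT replicate 2, lay just under the lowest other library, FAP41BBL replicate 2. Its log2 change was -1.71 ± 0.24 (adjusted p = 0.00284) in RT_FAP41BBL, -1.21 ± 0.24 (adjusted p = 0.00872) in RT, both against control, and -1.41 ± 0.24 (adjusted p = 0.0267) in RT_FAP41BBL against FAP41BBL.

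Lss, which closes squalene epoxide into lanosterol, varied little within the irradiated groups. It stood at 22.9, 22.3 and 25.4 CPM in RT_FAP41BBL, 22.5, 26.7 and 22.4 CPM in RT, 43.2, 30.7 and 36.2 CPM in FAP41BBL, and 47.7, 48.1 and 42.2 CPM in control. The 2 irradiated groups overlapped throughout and both lay below every other library. On the log2 scale it changed by -0.97 ± 0.13 (adjusted p = 0.00246) in RT_FAP41BBL and -0.95 ± 0.13 (adjusted p = 0.0015) in RT against control.

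Cyp51, the lanosterol demethylase, stood at 16, 14.4 and 22.3 CPM in RT_FAP41BBL, 25.5, 37.2 and 18.7 CPM in RT, 86.0, 38.1 and 46.4 CPM in FAP41BBL, and 79.6, 64.0 and 54.9 CPM in control. The irradiated libraries again lay below the others, with RT replicate 2 just under FAP41BBL replicate 2. In the test its log2 change was -1.91 ± 0.34 (adjusted p = 0.00959) in RT_FAP41BBL and -1.28 ± 0.33 (adjusted p = 0.0371) in RT. Fdft1, the squalene synthase that commits farnesyl diphosphate to sterols, changed by -1.32 ± 0.22 (adjusted p = 0.00617) and -0.97 ± 0.22 (adjusted p = 0.0185).

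Nsdhl and Hsd17b7, which with Msmo1 strip methyl groups from the sterol ring, both fell in the 2 irradiated groups. Nsdhl had nearly the same level in both, 19.7 ± 0.597 CPM in RT_FAP41BBL and 19.6 ± 1.55 in RT, with 29.9 ± 7.91 in FAP41BBL and 39.3 ± 5.44 in control. Hsd17b7 averaged 19.2 ± 1.43, 24.5 ± 3.41, 33.9 ± 5.62 and 36.5 ± 2.79 CPM in the same order of groups, and its log2 change was -0.92 ± 0.14 (adjusted p = 0.00285) in RT_FAP41BBL and -0.57 ± 0.13 (adjusted p = 0.0192) in RT. Msmo1 passed in RT_FAP41BBL (-1.39 ± 0.30, adjusted p = 0.0181) and had -0.95 ± 0.29 (adjusted p = 0.0686) in RT.

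The remaining 4 sterol enzymes were Sc5d, Dhcr7, Tm7sf2 and Ebp. Sc5d, a desaturase, and Dhcr7, a reductase of the final steps, fell by 0.69 and 0.46 on the log2 scale in RT_FAP41BBL against control (adjusted p = 0.0255 and 0.0179) and had -0.40 and -0.23 in RT (adjusted p = 0.155 and 0.188). Tm7sf2, a sterol reductase with 3.61 to 6.26 CPM in all libraries, fell by 0.69 in RT (adjusted p = 0.0273) and had -0.52 in RT_FAP41BBL (adjusted p = 0.0896). Ebp, the sterol isomerase, averaged 30 ± 2.80 CPM in RT_FAP41BBL, 27.1 ± 2.77 in RT, 30.8 ± 3.69 in FAP41BBL and 29.9 ± 1.27 in control and passed in no comparison.

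Per length, the order of the enzymes differed between the ends of the series. In TPM, Fdps averaged 27.0 ± 5.10 in RT_FAP41BBL and 106 ± 11.1 in control, where it was the highest of the 19 enzymes. Ebp, at 45.5 ± 3.22 TPM in RT_FAP41BBL and 46.0 ± 1.88 in control, was the highest enzyme after the combination. Tm7sf2 was the lowest in both, at 3.48 ± 0.74 and 5.02 ± 0.0724 TPM. Idi1, at 6.36 ± 1.96 and 33 ± 7.31 TPM, moved to the second lowest place in RT_FAP41BBL.

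Over all 6 irradiated and all 6 other libraries, 9 of the 30 genes were lower without any overlap, namely Hmgcs1, Sqle, Lss, Cyp51, Nsdhl, Hsd17b7, Srebf2, Insig1 and Stard4, where 1.37% of all tested genes were. In the other direction the count was 0 of 30, with 1.78% of all tested genes.

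**Figure D3:**
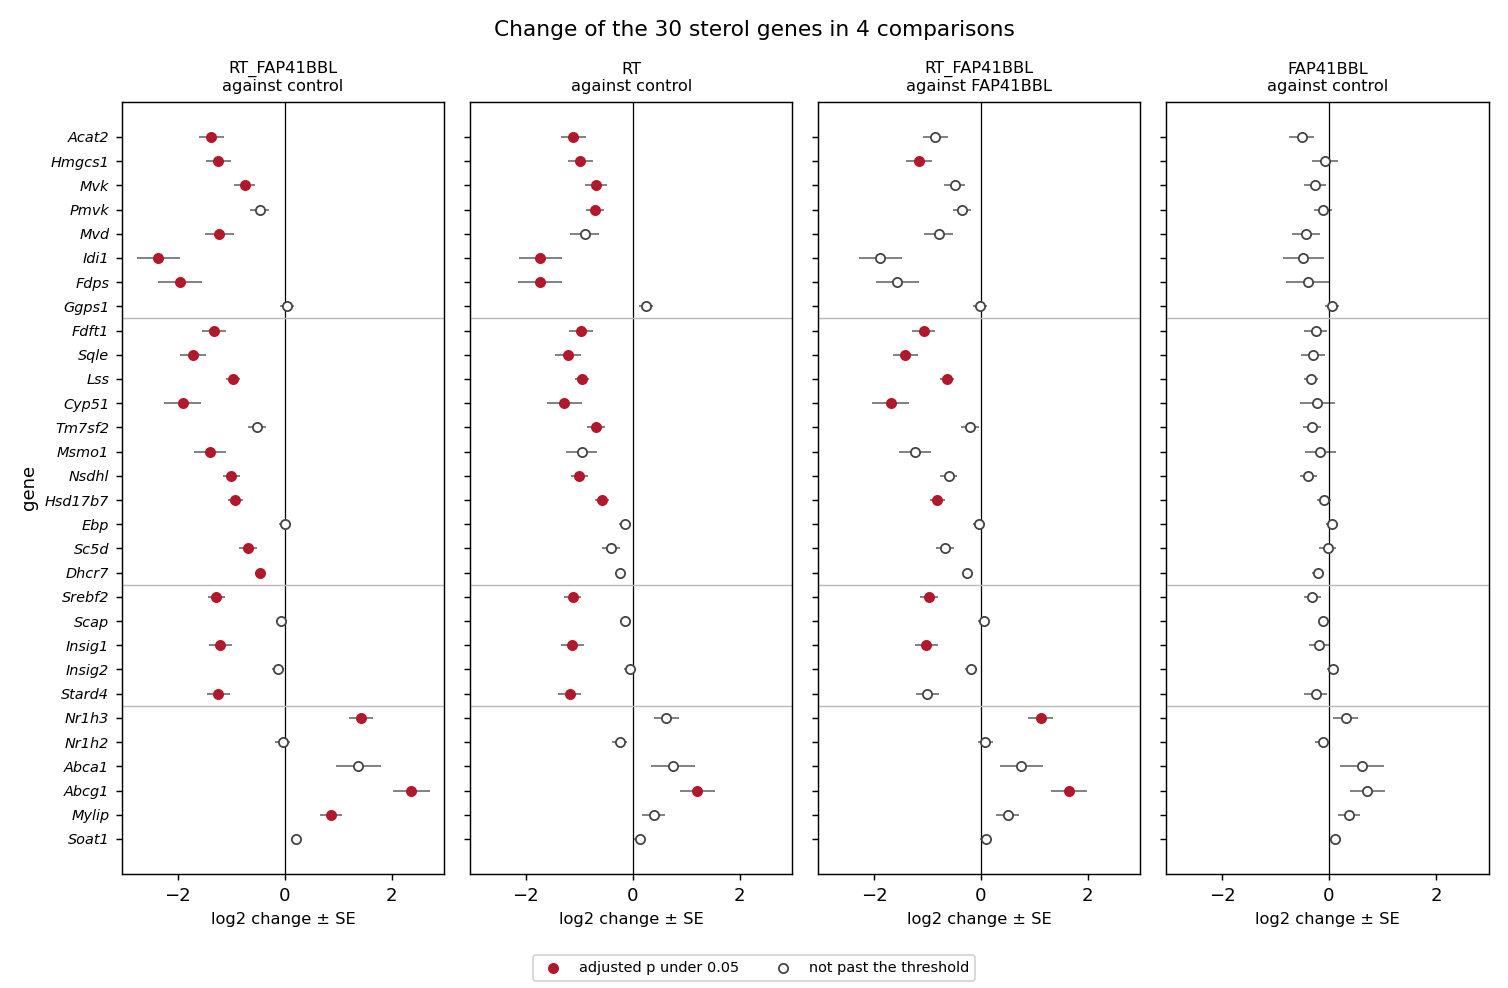
Log2 change with its SE for the 30 genes (down, grouped by role) in 4 comparisons (panels); filled points have an adjusted p under 0.05. The filled points of RT_FAP41BBL and RT against control lie to the left for most enzymes and to the right for Abcg1, and the FAP41BBL panel has no filled point.

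Of the 6 LXR and efflux genes, 3 rose in RT_FAP41BBL against control, 1 rose in RT, and none fell. In these comparisons 5.59% and 6.57% of all tested genes rose. Abcg1, the exporter of cholesterol to HDL (chromosome 17, 31276649 to 31336962), stood at 232, 281 and 290 CPM in RT_FAP41BBL, 112, 74.3 and 173 CPM in RT, 50.1, 118 and 87.2 CPM in FAP41BBL, and 53.4, 44.9 and 56.6 CPM in control. The RT_FAP41BBL libraries stood above all 9 others, and RT above control. The fitted log2 change was 2.37 ± 0.34 (adjusted p = 0.00393), a 5.19-fold level, in RT_FAP41BBL against control, 1.21 ± 0.33 (adjusted p = 0.0439) in RT against control, and 1.65 ± 0.33 (adjusted p = 0.0494) in RT_FAP41BBL against FAP41BBL. Per length it averaged 129 ± 11.5 TPM in RT_FAP41BBL, the highest of the 30 genes there, against 25.1 ± 2.47 TPM in control.

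Nr1h3, the LXR isoform most abundant in macrophages and liver, stood at 38.6, 59.2 and 42.5 CPM in RT_FAP41BBL, 29.9, 17.2 and 33.4 CPM in RT, 22, 21.1 and 21.6 CPM in FAP41BBL, and 21, 15.1 and 16 CPM in control. Each RT_FAP41BBL library stood above all others. Its log2 change was 1.43 ± 0.23 (adjusted p = 0.00517) in RT_FAP41BBL against control and 1.12 ± 0.23 (adjusted p = 0.0475) against FAP41BBL, and 0.63 ± 0.23 (adjusted p = 0.114) in RT against control. Nr1h2, the isoform found in most cells, averaged 71.8 ± 5.90, 62.8 ± 13.2, 68.1 ± 6.42 and 74.0 ± 6.96 CPM in RT_FAP41BBL, RT, FAP41BBL and control and passed in no comparison.

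Abca1, which exports cholesterol to lipid-poor apolipoprotein, stood at 212, 194 and 238 CPM in RT_FAP41BBL, 92.0, 94.3 and 230 CPM in RT, 67.7, 146 and 166 CPM in FAP41BBL, and 58.6, 86.3 and 103 CPM in control. RT_FAP41BBL lay above control without overlap, but RT replicate 3 alone reached its level, and the log2 change of 1.38 ± 0.42 in RT_FAP41BBL against control missed the threshold (adjusted p = 0.0749). Mylip, an LXR-induced ubiquitin ligase that lowers lipoprotein uptake, rose by 0.87 ± 0.21 (adjusted p = 0.0294) in RT_FAP41BBL against control, with 63.7 ± 7.81 and 34.8 ± 4.80 CPM. Soat1, which esterifies cholesterol for storage, averaged 244 ± 13.2 CPM in RT_FAP41BBL, 231 ± 15.1 in RT, 230 ± 13.7 in FAP41BBL and 212 ± 21.4 in control and passed in no comparison.

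Macrophage markers rose beside the efflux genes in RT_FAP41BBL, but not as a set in RT. Of 10 markers, 5 rose in RT_FAP41BBL against control and 1 in RT against control. In these comparisons 5.59% and 6.57% of all tested genes rose. The log2 change was positive for 8 of 10 markers (median 0.67) in RT_FAP41BBL and for 5 of 10 (median -0.00) in RT. None of the 10 was at 0 in any library. Within RT, replicate 2 had the lowest macrophage sum (2530 CPM) and the lowest Abcg1, Nr1h3 and Mylip, while Abca1 was lowest in replicate 1. Replicate 3 had the highest macrophage sum (4140 CPM) and the highest Abcg1, Nr1h3 and Abca1, while Mylip was highest in replicate 1. Within FAP41BBL, replicate 3 had the highest macrophage sum (4390 CPM) and the highest Abca1. There Abcg1 and Mylip were highest in replicate 2, and Nr1h3 in replicate 1. With the macrophage score of each library as a term in the model, a setting chosen after seeing the data, Abcg1 in RT_FAP41BBL against control had 1.34 (adjusted p = 0.315), Nr1h3 had 0.89 (adjusted p = 0.499) and Srebf2 had -1.22 (adjusted p = 0.254), and 0 of all tested genes passed, while 14 of the 30 and 8.72% of all tested genes had an unadjusted p under 0.05. In RT against control, where macrophage sums overlapped, the same model gave 1 gene higher and 17 lower, with Abcg1 at 1.07 (adjusted p = 0.0120) and Srebf2 at -1.12 (adjusted p = 0.00334). In that fit 1999 of all tested genes passed.

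Skeletal muscle markers moved with radiotherapy alone: 5 of 12 rose in RT against control and 0 in RT_FAP41BBL against control. In these comparisons 6.57% and 5.59% of all tested genes rose. With the muscle score as a term, RT against control had 0 of the 30 genes and 3 of all tested genes past the threshold, 18 of the 30 and 11.7% of all tested genes had an unadjusted p under 0.05, and the median of the 19 enzymes was -1.11. Srebf2 then had -1.11 (adjusted p = 0.15) and Lss -1.11 (adjusted p = 0.0865). In RT_FAP41BBL against control the same model gave 17 lower and 3 higher of the 30 genes, with 923 of all tested genes called.

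**Figure D4:**
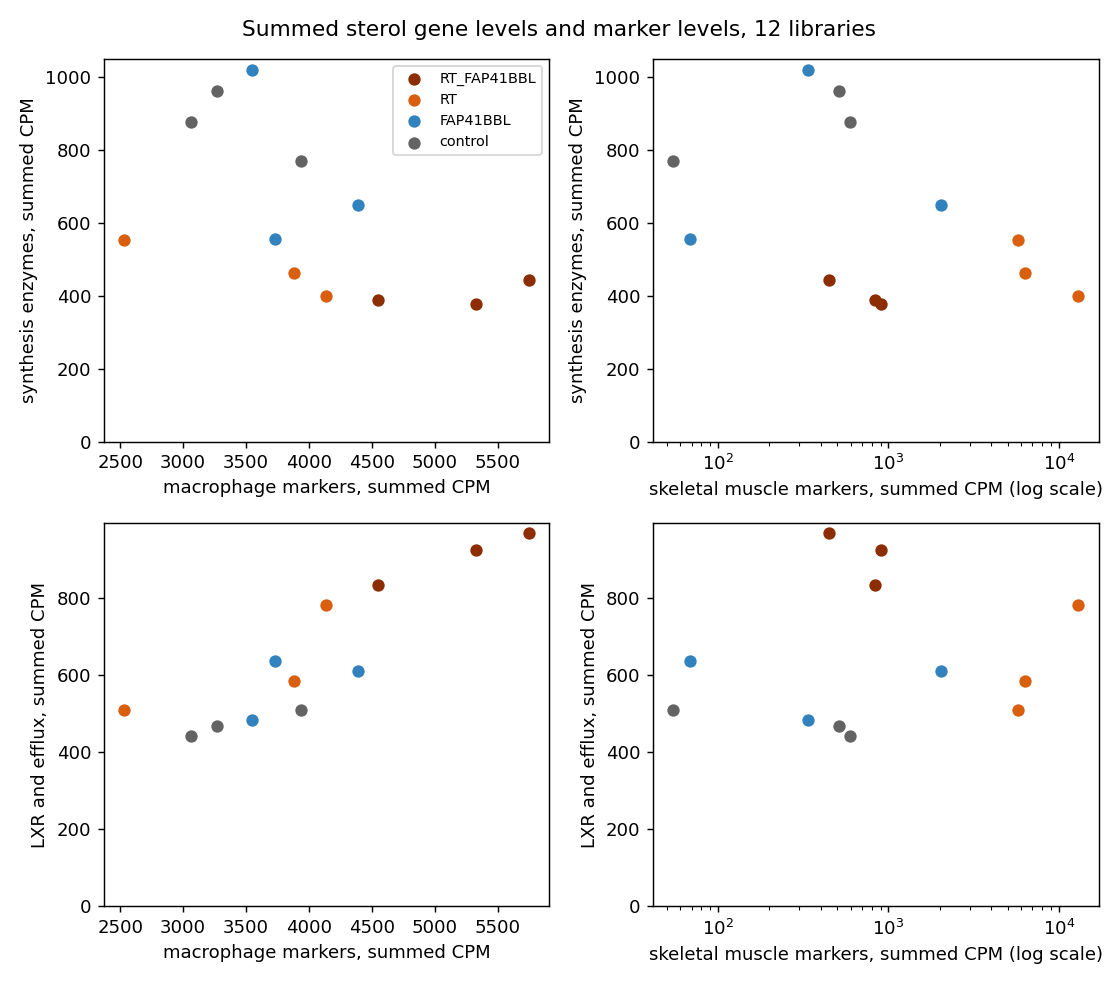
Summed CPM of the 19 synthesis enzymes (top) and of the 6 LXR and efflux genes (bottom) against summed CPM of macrophage markers (left) and skeletal muscle markers (right, log scale), 1 point a library. The 6 irradiated libraries lie below the other 6 on the enzyme axis, RT lies apart on the muscle axis, and RT_FAP41BBL has the highest macrophage sums and the highest LXR and efflux sums.

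The agonist alone was compared with control for its own effect. None of the 30 genes passed (0.00563% of all tested genes did), 4 had an unadjusted p under 0.05 (5.17% of all tested genes did), and DESeq2 and limma-voom called 0 as well. Srebf2 had a log2 change of -0.31 with a 95% interval of -0.67 to 0.06, Sqle -0.30 with -0.83 to 0.24, and Abcg1 0.72 with -0.03 to 1.47. The group was not uniform: its enzyme sum was 1020 CPM in replicate 1 and 555 and 650 CPM in replicates 2 and 3, and Abcg1 was 50.1, 118 and 87.2 CPM in the same libraries. Without replicate 1 the enzyme median was -0.52 in place of -0.25, and 21 of the 30 genes had an unadjusted p under 0.05 with 0 called, where 6.63% of all tested genes had one.

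What the agonist added to radiotherapy was asked in RT_FAP41BBL against RT. None of the 30 genes passed in edgeR's test, where 5.76% of all tested genes did, and 5 had an unadjusted p under 0.05, as 23.0% of all tested genes did. Abcg1 had a log2 change of 1.16 (95% interval 0.41 to 1.92, adjusted p = 0.0624) and Nr1h3 0.80 (0.27 to 1.33, adjusted p = 0.0611), and in both genes the 3 RT_FAP41BBL libraries stood above the 3 RT libraries. Markers of other cell types moved in the same comparison: 5 of 10 macrophage markers (median log2 change 0.53) and 3 of 7 T cell markers (0.96) rose, and the 12 muscle markers had a median of -3.65 with 0 called. Of all tested genes, 3.36% rose. With the macrophage or the muscle score in edgeR's model, 0 of the 30 genes passed, and 0 and 1 had an unadjusted p under 0.05. Of all tested genes, only 6 and 1 passed in these models, against 1022 without a score. An unadjusted p under 0.05 was found for 7.31% and 15.5% of them. DESeq2 and limma-voom each called Abcg1 and Nr1h3, among 2063 and 1366 of 17757 tested genes called. EdgeR's test without RT replicate 3, the RT library with the highest Abcg1, also called both (adjusted p = 0.0169 for Abcg1 and 0.0284 for Nr1h3). That fit called 2305 of 18106 tested genes. The enzyme median was -0.26, with Sqle at -0.49 (-1.03 to 0.05) and Srebf2 at -0.16 (-0.53 to 0.21).

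Whether the agonist altered the change with radiotherapy was asked by the interaction, the change of RT_FAP41BBL against FAP41BBL minus that of RT against control. None of the 30 genes passed, 0 of 30 had an unadjusted p under 0.05, and DESeq2 and limma-voom called 0. Of all tested genes, 0.152% passed and 14.1% had an unadjusted p under 0.05. The interval for Srebf2 was -0.38 to 0.66 around 0.14, that for Sqle -0.95 to 0.57 around -0.19, and that for Abcg1 -0.61 to 1.5 around 0.44 on the log2 scale, and all 3 intervals include 0.

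Some calls were lost when a single library was left out. In RT against control, the number of genes that fell was 8 without RT replicate 3, 7 without control replicate 1 and 7 without control replicate 2, against 16 with all libraries, and Acat2, Sqle, Lss, Nsdhl, Srebf2, Insig1 and Stard4 passed whichever library was left out. Of all tested genes, 1371, 1053 and 805 passed without RT replicate 3, control replicate 1 and control replicate 2 in turn, against 1709. The rise of Abcg1 in RT passed in 1 of the 6 fits that left out a library. In RT_FAP41BBL against control, 10 fell without RT_FAP41BBL replicate 2, against 18, and 12 of the 21 calls held in every fit: Acat2, Idi1, Fdft1, Sqle, Lss, Nsdhl, Hsd17b7, Srebf2, Insig1, Stard4, Nr1h3 and Abcg1. In RT_FAP41BBL against FAP41BBL, no call held in every fit, and 0 genes passed without RT_FAP41BBL replicate 1 or 2 or without FAP41BBL replicate 1 or 3, while 2 fell without RT_FAP41BBL replicate 3. Without FAP41BBL replicate 2, 12 fell and 1 rose.

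Fatty acid synthesis, driven mainly by the related factor SREBP1, shared the fall in part. Of 12 genes, 6 fell in RT_FAP41BBL against control and 6 in RT, where 2.31% and 3.05% of all tested genes fell. The median log2 change was -0.35 in both, against 0.01 and -0.00 over all tested genes. Adipocyte markers, which share this pathway, had 0 of 9 called in either comparison, where 7.91% and 9.62% of all tested genes passed. Their log2 change was positive for 9 of 9 (median 2.85) in RT_FAP41BBL and for 8 of 9 (1.71) in RT. The part that their summed levels, given above, played here was not tested. Fads2, a desaturase of polyunsaturated fatty acids, stood at 21.2, 21 and 26.3 CPM in RT_FAP41BBL, 22.9, 27.0 and 25.6 CPM in RT, 59.2, 29.8 and 42.7 CPM in FAP41BBL, and 60.1, 54.1 and 57.2 CPM in control. The irradiated libraries did not overlap the others, and the log2 change was -1.32 ± 0.20 (adjusted p = 0.00314) in RT_FAP41BBL and -1.18 ± 0.19 (adjusted p = 0.00388) in RT. Elovl6, which elongates palmitate, had -1.21 ± 0.19 (adjusted p = 0.00404) and -1.07 ± 0.19 (adjusted p = 0.00511). Acss2, which makes acetyl-CoA from acetate, had -0.76 and -0.81 (adjusted p = 0.00921 and 0.00539). The call of Acss2 in RT_FAP41BBL was lost without RT_FAP41BBL replicate 2 (adjusted p = 0.0510).

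Genes around these factors, which process SREBPs or branch off to isoprenoids, held no call. None of the 10 genes of SREBP processing and sterol-regulated degradation and none of the 11 genes of the isoprenoid branch passed in RT_FAP41BBL or RT against control. Their medians lay between -0.06 and 0.08. Of all tested genes, 7.91% and 9.62% passed, so lists this short cannot be told from all genes by a count of 0. Unadjusted p-values under 0.05 numbered 2 and 2 in the first list and 0 and 2 in the second, in the same order of groups. Of all tested genes, 23.6% and 24.2% had one.

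Ch25h, an interferon-induced cholesterol hydroxylase whose oxysterol product restrains SREBP2 processing, was the 1 of 5 oxysterol genes that rose in each irradiated group against control. It stood at 101, 162 and 103 CPM in RT_FAP41BBL, 103, 49.7 and 95.7 CPM in RT, 42.0, 58.5 and 43.1 CPM in FAP41BBL, and 23.4, 30.4 and 40.0 CPM in control. RT_FAP41BBL and RT lay above control, and RT replicate 2 lay within the FAP41BBL range. On the log2 scale it changed by 1.97 ± 0.31 (adjusted p = 0.00545) in RT_FAP41BBL and 1.41 ± 0.30 (adjusted p = 0.0164) in RT. The call in RT was lost without RT replicate 3, control replicate 1 or control replicate 2 (adjusted p up to 0.0691). Cyp27a1, a mitochondrial sterol hydroxylase, was higher in RT_FAP41BBL than in RT, with 22.8 ± 3.69 and 9.79 ± 4.38 CPM (log2 change 1.22 ± 0.26, adjusted p = 0.0217), and that call held in 2 of the 6 fits that left out a library. It was also lost with the muscle score, with the macrophage score and with only the compared groups in the model. Of all tested genes, 1, 6 and 785 passed in these models.

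Of 17 genes of cholesterol trafficking and uptake, 3 rose in RT_FAP41BBL against control, where 5.59% of all tested genes rose, and 1 in RT against control, a share below the 6.57% of all tested genes. Npc2, which hands lysosomal cholesterol to the membrane, averaged 785 ± 109 CPM in RT_FAP41BBL and 474 ± 17.9 in control (log2 change 0.73 ± 0.13, adjusted p = 0.00831). Gramd1b, a carrier of plasma membrane cholesterol, averaged 39.7 ± 2.11 and 19.5 ± 0.665 CPM (1.03 ± 0.23, adjusted p = 0.0202). Olr1, a scavenger receptor for oxidised lipoprotein, rose in both groups but never exceeded 1.82 CPM.

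Of 5 further LXR targets, 2 rose in RT_FAP41BBL against control and 0 in RT, where 5.59% and 6.57% of all tested genes rose. Pltp, the phospholipid transfer protein, stood at 367, 402 and 364 CPM in RT_FAP41BBL, 223, 169 and 293 CPM in RT, 153, 164 and 251 CPM in FAP41BBL, and 158, 162 and 182 CPM in control. Its log2 change against control was 1.17 ± 0.21 (adjusted p = 0.00665), with the RT_FAP41BBL libraries above all others. Smpdl3a, a secreted phosphodiesterase, had 1.31 ± 0.31 (adjusted p = 0.0274). With 1 library left out, the call in RT_FAP41BBL against control held in 6 of 6 fits for Pltp, 5 of 6 for Npc2 (lost without control replicate 2), 1 of 6 for Gramd1b, 1 of 6 for Smpdl3a and 0 of 6 for Olr1. The call of Olr1 in RT held in 3 of 6. With the muscle score in the model, 0 of the 8 calls of these other lists in RT against control held and 9 of the 12 in RT_FAP41BBL against control. With the macrophage score, 8 of 8 and 0 of 12 held in these comparisons. Of all tested genes, 3 and 923 passed with the muscle score and 1999 and 0 with the macrophage score, in the same order of comparisons. The counts of 0 held therefore say little about these lists.

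**Figure D5:**
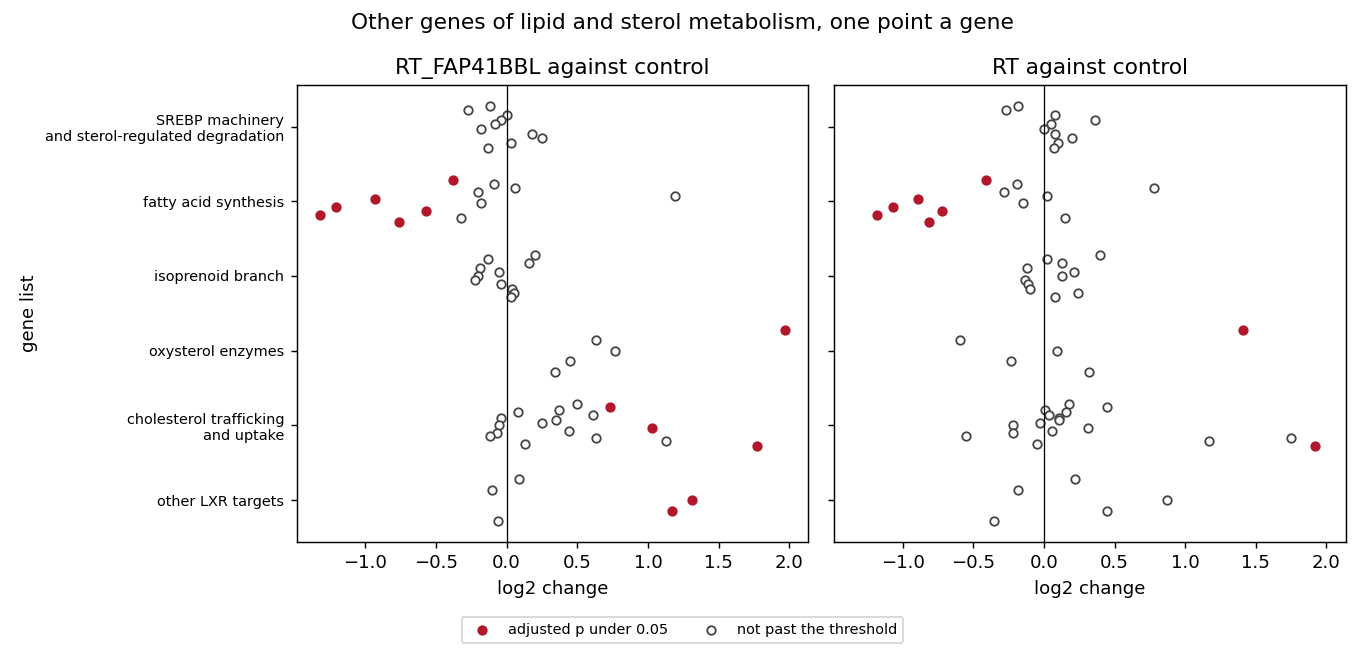
Log2 change of single genes (1 point each) in 6 lists of related genes, in RT_FAP41BBL against control (left) and RT against control (right); filled points have an adjusted p under 0.05. The 6 filled points of fatty acid synthesis lie to the left in both panels, and those of oxysterol enzymes, trafficking and LXR targets lie to the right.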

How the data were processed

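Tumour RNA was sequenced as read pairs from 12 TruSeq stranded mRNA libraries, per the labels' protocols. The deposited values are raw counts of fragments per gene, made by the authors with featureCounts 1.6.0, strand-aware, over GENCODE M33 exons (a GRCm39 annotation), per the file headers. Per the submitters' processing notes, the tools included STAR 2.7.9a and FastQC 0.11.8, with limma and edgeR. The files carry gene identifiers only, and a reference table of names gave a symbol to 51948 of the 56884 genes.

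Counts were analysed with edgeR 4.0.16 in R 4.3.3: filterByExpr, TMM scaling, and 1 robust quasi-likelihood model of the 4 groups, with Benjamini-Hochberg adjustment over 17757 genes. The common biological coefficient of variation was 0.205, with 8 residual degrees of freedom. CPM values use the TMM-scaled library sizes, and TPM values also gene length. The method was checked on counts drawn with known changes.

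Members, gene lists and tests were chosen with earlier results of these data known. All 30 members could be named, and up to 4 genes of each other list by smallest p. Marker lists covered skeletal muscle, adipocytes, macrophages, fibroblasts, T cells, epithelium, keratinocytes, sebocytes and proliferation. In RT_FAP41BBL against control, 2 of 7 T cell markers rose, and 0 of the tested adipocyte, keratinocyte and sebocyte markers passed. Of all tested genes, 5.59% rose and 7.91% passed there. Control replicate 2 had the highest sebocyte sum, 10.2 CPM. Some genes of the pathway are not reported here.

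Alternatives were RLE factors, no filter, DESeq2 1.42.0, limma-voom (limma 3.58.1), the replicate number as a block, a skeletal muscle or macrophage score (mean log2 CPM with a prior count of 2) as a covariate, only the compared groups, and each library left out.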

Additional observations from a re-analysis of the deposited data

How the results depend on the processing

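No called change of the 30 genes or of the other lists reversed under any alternative run. In RT against control, 16 genes fell and 1 rose. No low-count filter gave 0 higher, the replicate block 0 higher, and the skeletal muscle score 0 higher and 0 lower. Leaving out 1 library gave 7 to 13 lower and 0 to 2 higher. In RT_FAP41BBL against control, with 18 lower and 3 higher, the macrophage score gave 0 and 0, and leaving out 1 library 10 to 16 lower. In RT_FAP41BBL against RT, with 0 of either, DESeq2 and limma-voom gave 2 higher and leaving out 1 library 0 to 2. RT_FAP41BBL against FAP41BBL, with 8 lower and 2 higher, was the least stable. It gave 5 lower and 0 higher with RLE factors, 0 higher without the filter, 15 lower with DESeq2, 4 lower and 0 higher with the replicate block or the muscle score, 0 and 0 with the macrophage score, 2 lower and 1 higher with only the compared groups, and 0 to 12 lower and 0 to 1 higher with 1 library left out. Calls among all tested genes shifted as well. With the muscle score 3 passed in RT against control, in place of 1709. With the macrophage score 0 passed in RT_FAP41BBL against control, in place of 1404. In RT_FAP41BBL against FAP41BBL, 168 calls became 783 with DESeq2, 0 with the macrophage score and 0 to 132 with 1 library left out. The cause of these shifts was not tested. By the rule that every pair must correlate over 0.1, replicate numbers pair no 2 groups compared here. The correlation of same-numbered deviations lay between -0.34 and 0.43, over 0.1 in 5 of 18 pairs, 3 of them between RT and FAP41BBL (0.31, 0.18 and 0.43), which were not compared directly, and 5 of 12 libraries correlated best with their own number.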
